A study of Mus musculus with 6 samples.

Results

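The coagulation and anticoagulant genes of the vessel wall described here are 10 genes, F3, F5, F10, F2r, F13a1, Tfpi, Tfpi2, Thbd, Procr and Pros1, chosen by name for their role in clotting and found by gene symbol in a table of 47643 genes. All 10 were present and all 10 passed the filter on low counts, which 16522 genes passed. RNA was sequenced from the entire aorta of Apoe-/- mice, which lack apolipoprotein E and develop high plasma cholesterol and atherosclerosis. The EPO group (3 libraries) received recombinant human erythropoietin, the hormone that drives red cell production, injected into the peritoneum, 5000 IU per kg each day for 4 weeks. The Vehicle group (3 libraries) received saline by the same route for 4 weeks. Both groups carry the Apoe deletion, and wild-type aorta was not analysed here. Nothing in the labels says outright that each library came from a separate animal, so the p-values cover the variation among the 6 libraries, which may be technical. The series title names abdominal aortic aneurysm, and the comparison asks which genes of the aorta differ with EPO.

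Clotting starts when tissue factor, the product of F3, which is held by smooth muscle and adventitial cells behind the endothelium, meets plasma factor VII and activates factor X (F10). With its cofactor factor V (F5), activated factor X makes thrombin, which forms fibrin and signals to cells through protease-activated receptors, of which F2r encodes the founding member. The wall opposes this with the inhibitor encoded by Tfpi and with the protein C pathway, in which thrombomodulin (Thbd) and the endothelial protein C receptor (Procr) present thrombin with protein C, and protein S (Pros1) serves as cofactor.

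Levels of a gene are given as CPM, its count relative to the scaled size of the library. With EPO, the gene of the protein that starts clotting fell and that of its main inhibitor rose. F3 was 2.34-fold lower, Tfpi was 1.63-fold higher and its relative Tfpi2 was 6.57-fold higher. F2r was 1.42-fold higher and Procr 1.45-fold lower. Of the 10 genes, 3 were higher and 2 lower (quasi-likelihood test of edgeR, Benjamini-Hochberg adjusted p below 0.05), where 23.0% of all tested genes were called, 12.9% as higher and 10.1% as lower. F5, F10, F13a1, Thbd and Pros1 did not pass. In 6 of the 10 the libraries did not overlap between groups (4 with EPO above, 2 with EPO below), against 43.8% of all tested genes (22.9% with EPO above, 21.0% with EPO below). The median log2 fold change over the 10 was 0.40, beside 0.0113 over all tested genes. Without Vehicle 2 the count of called genes was 2 (1 higher, 1 lower), and without Vehicle 1 or Vehicle 3 it was 3. EPO 1 and EPO 2 held the most skeletal muscle counts. With both left out, which sets 1 EPO library against 3 Vehicle libraries and takes the spread from Vehicle alone, the count was 2 (2 higher, 0 lower), and with so small an arm a lost call says little about a gene.

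**Figure D1:**
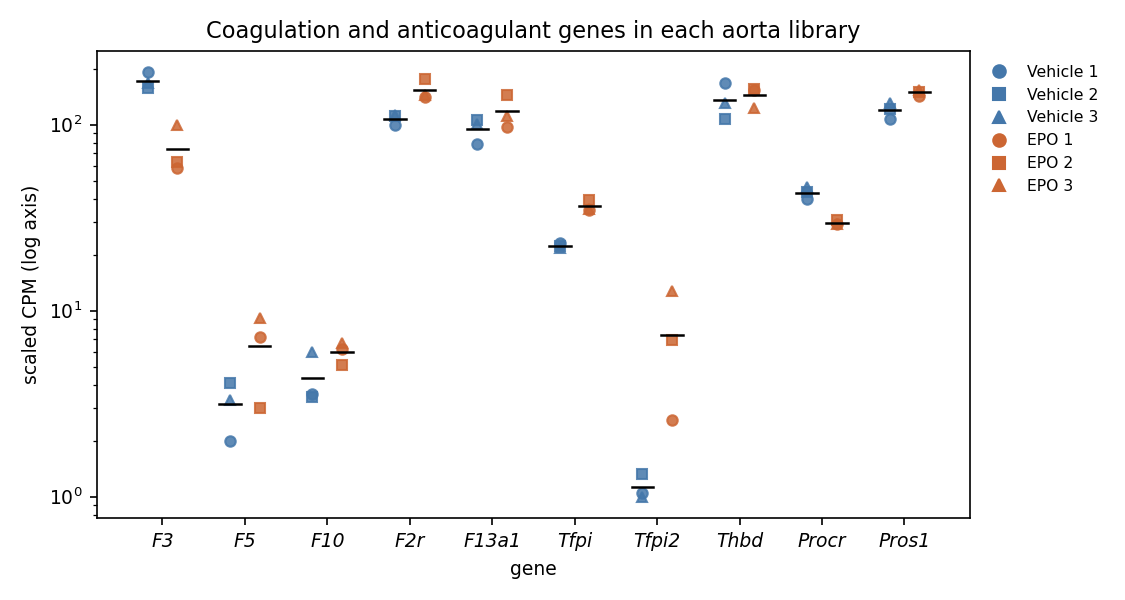
Level of each gene in each library as CPM (counts scaled by library size) on a log axis, with Vehicle in blue, EPO in orange and a black line at the group mean. F3 and Procr lie lower in all EPO libraries, F2r, Tfpi, Tfpi2 and Pros1 lie higher, and Tfpi2 spreads from 2.59 to 12.7 CPM among the EPO libraries.

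The promoters of the 5 genes that passed are shown because these genes moved in both directions. Each sequence is the 250 bases before a RefSeq start site (GRCm38.p6), 5′ to 3′ on the gene's own strand: chr3:121723287-121723536 for F3 (plus strand), chr13:95618467-95618716 for F2r (minus), chr2:155750967-155751216 for Procr (plus), chr2:84476760-84477009 for Tfpi (minus, the outermost of its 2 starts in the table) and chr6:3968376-3968625 for Tfpi2 (minus, the innermost of 3). Capitals mark matches, on either strand, to TGANTCA (AP-1), the NF-kB motif, TTCNNNGAA (STAT), CCACCC (KLF), GCGNGGGCG (EGR), GGGCGG (SP) or TATAAA (the TATA box), and the EGR and SP letters can overlap.
F3: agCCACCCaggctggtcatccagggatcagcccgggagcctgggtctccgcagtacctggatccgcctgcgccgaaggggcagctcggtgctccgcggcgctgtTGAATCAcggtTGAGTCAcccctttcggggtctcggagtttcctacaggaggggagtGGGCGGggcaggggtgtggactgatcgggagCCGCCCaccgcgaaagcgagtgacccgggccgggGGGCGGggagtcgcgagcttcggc
F2r: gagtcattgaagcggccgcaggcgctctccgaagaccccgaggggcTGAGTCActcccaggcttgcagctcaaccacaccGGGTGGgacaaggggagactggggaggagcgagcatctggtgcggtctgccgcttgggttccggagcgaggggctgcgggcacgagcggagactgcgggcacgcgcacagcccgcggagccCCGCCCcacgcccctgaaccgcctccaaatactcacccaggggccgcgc
Procr: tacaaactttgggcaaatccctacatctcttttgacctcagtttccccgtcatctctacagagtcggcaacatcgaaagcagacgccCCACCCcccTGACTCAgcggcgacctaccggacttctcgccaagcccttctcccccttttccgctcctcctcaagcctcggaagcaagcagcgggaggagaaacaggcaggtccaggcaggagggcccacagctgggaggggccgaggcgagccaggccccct
Tfpi: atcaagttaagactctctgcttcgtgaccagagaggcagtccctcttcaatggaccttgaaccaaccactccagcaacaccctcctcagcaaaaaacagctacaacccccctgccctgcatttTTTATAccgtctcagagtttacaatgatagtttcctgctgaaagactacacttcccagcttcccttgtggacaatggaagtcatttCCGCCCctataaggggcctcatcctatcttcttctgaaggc
Tfpi2: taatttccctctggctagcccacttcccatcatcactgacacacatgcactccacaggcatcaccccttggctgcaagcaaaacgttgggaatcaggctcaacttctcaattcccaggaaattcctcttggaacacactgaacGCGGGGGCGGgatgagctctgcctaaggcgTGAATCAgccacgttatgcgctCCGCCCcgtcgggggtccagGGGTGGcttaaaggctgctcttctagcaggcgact

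The AP-1 letters stood in the promoters of F3, F2r, Procr and Tfpi2, that is in 4 of the 13 start sites listed for 9 of the 10 genes, and in 6.75% of 32851 mouse promoters of the same length. F3 held a pair of them, TGAATCA and TGAGTCA, starting 146 and 135 bases before the start. F2r held TGAGTCA 204 bases, Procr TGACTCA 154 bases and Tfpi2 TGAATCA 77 bases before the start. The 4 genes with these letters were 2 that rose and 2 that fell. At Tfpi2 only the start shown held these letters, and its other windows overlap each other, so the 13 starts are not all separate promoters. The KLF letters were found at 9 of the 13 starts (28.1% of all promoters), the SP letters at 7 (32.7%), the STAT letters at 1, that of Pros1 (7.02%), and the NF-kB letters at 0 (1.41%). A match of letters is a description and not a site of binding.

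F3, tissue factor (ENSMUSG00000028128, GRCm38 chromosome 3, 121723537 to 121735048, plus strand), stood at 192, 158 and 168 CPM in Vehicle 1, 2 and 3 and at 58.2, 62.9 and 99.7 CPM in EPO 1, 2 and 3. Every EPO library lay below every Vehicle library, and EPO 3 was the highest of its group. The means were 173 ± 17.4 and 73.6 ± 22.8 CPM (SD, n = 3 each), a log2 fold change of -1.23 (SE 0.22, edgeR adjusted p = 0.00879). With EPO 3 as the only EPO library, against the spread of Vehicle alone, the log2 fold change was -0.79 (adjusted p = 0.0519).

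Smooth muscle markers moved in the same libraries. In whole tissue, fewer cells of a type and less RNA per cell cannot be told apart. Of 10 smooth muscle markers 9 were lower and 0 higher (5 lower without Vehicle 1), their summed level was 21257 to 30318 CPM in Vehicle and 7638 to 10117 CPM in EPO, and their most abundant members, Acta2 and Tagln, had log2 fold changes of -1.62 and -1.24. Myh11, next in abundance, had -1.94. For each 1000 CPM of that sum F3 had 6.33, 7.42 and 6.62 CPM in Vehicle 1, 2 and 3 and 7.62, 7.40 and 9.86 CPM in EPO 1, 2 and 3. Relative to smooth muscle markers the F3 values of the groups thus overlapped, with EPO 2 just under Vehicle 2. Relative to 8 fibroblast markers, F3 went from 21.9 ± 4.23 to 2.29 ± 0.465 CPM for each 1000 (SD, n = 3). F3 lay below and the fibroblast sum above in every EPO library, so these values had to separate and say nothing further about F3. The make-up of that sum differed between groups: Col1a1 was 2899 to 4006 of 7243 to 8713 CPM in Vehicle and 22753 to 29393 of 28713 to 35733 CPM in EPO. The part of either cell type in the fall of F3 was not tested.

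F10 (ENSMUSG00000031444, chromosome 8, 13037308 to 13056676), is the zymogen that tissue factor activates and is known to be made mainly in liver. It stood at 3.56, 3.42 and 6.0 CPM in Vehicle and at 6.22, 5.09 and 6.70 CPM in EPO, and the groups overlapped (log2 fold change 0.47, SE 0.28, edgeR adjusted p = 0.259). F5 (ENSMUSG00000026579, chromosome 1, 164151838 to 164220277), the cofactor carried in plasma and platelets, stood at 2.0, 4.08 and 3.31 CPM in Vehicle and at 7.22, 2.99 and 9.14 CPM in EPO. EPO 2 lay among the Vehicle libraries (log2 fold change 1.04, SE 0.44, adjusted p = 0.132), and without EPO 2 F5 passed (1.38, adjusted p = 0.0408). Hepatocyte markers were close to 0 in every library, with a sum over 6 genes of at most 0.505 CPM. Of 9 tested platelet markers 2 were higher and 0 lower in edgeR, 6 were higher in DESeq2, 5 without EPO 2 and, of 10 with no filter, 6. These settings called 3804, 4962, 2575 and 4144 genes over all, in that order. The platelet marker sum ran from 119 to 189 CPM in Vehicle and from 202 to 365 CPM in EPO. Much of it was Itgb3, at 152, 76.6 and 93.5 CPM in Vehicle and 89.6, 168 and 120 CPM in EPO. Itgb3 was not called (edgeR adjusted p = 0.629), and Gp1ba was lower in every EPO library without passing. The 2 called in edgeR were Pf4 (log2 fold change 1.99, adjusted p = 0.00187) and Ppbp (3.12, adjusted p = 0.0229). Ppbp stood at 6.44, 10.8 and 48.1 CPM in EPO 1, 2 and 3. Of the 9 tested, 5 lay above Vehicle in every EPO library and 1, Gp1ba, below. The part of platelet markers in the F5 values was not tested. Part of the exon sequence of F5, 262 of 7430 bases, overlaps a long noncoding gene on the opposite strand. Whether the counting told their reads apart is not known, as no strand setting is given.

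F2r, the thrombin receptor (ENSMUSG00000048376, chromosome 13, 95601803 to 95618487), stood at 99.8, 111 and 113 CPM in Vehicle and at 140, 176 and 144 CPM in EPO. Every EPO library was above every Vehicle library, and the Vehicle libraries lay close together (coefficient of variation 6.73%). The means were 108 ± 7.27 and 153 ± 19.6 CPM (SD, n = 3), a log2 fold change of 0.50 (SE 0.14, edgeR adjusted p = 0.0357). The value held between 0.39 and 0.55 over 16 alternatives, but the call was lost in 8 of them, among them without Vehicle 1 (adjusted p = 0.164), Vehicle 2 (0.110), Vehicle 3 (0.0803), EPO 2 (0.0937) or EPO 3 (0.0594). For each 1000 CPM of smooth muscle markers F2r had 3.29, 5.22 and 4.47 CPM in Vehicle and 18.3, 20.7 and 14.2 CPM in EPO. F2r lay above and the marker sum below in every EPO library, so these values had to separate and say nothing further about F2r.

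The 3 other protease-activated receptors passed as well, all higher. F2rl1, a receptor for trypsin-like proteases, went from 3.78, 4.86 and 4.14 CPM in Vehicle to 8.06, 11 and 7.73 CPM in EPO (edgeR log2 fold change 1.07, adjusted p = 0.0142). F2rl3, a low-affinity thrombin receptor best known from platelets, went from 1.13, 1.40 and 0.897 to 3.57, 2.58 and 2.71 CPM (1.37, adjusted p = 0.0175). F2rl2, a thrombin-binding cofactor receptor, went from 0.391, 0.389 and 0.725 to 1.67, 0.984 and 1.68 CPM (1.51, adjusted p = 0.0344). In all 3 every EPO library lay above every Vehicle library, as in 22.9% of all tested genes. Over all tested genes 12.9% were called higher. F2rl1 lost its call without Vehicle 1 (adjusted p = 0.0674), F2rl3 without Vehicle 1 or Vehicle 3 (0.0734 and 0.0561) and F2rl2 without Vehicle 1, Vehicle 2, EPO 1 or EPO 3 (0.133, 0.127, 0.0654 and 0.0899). With EPO 3 as the only EPO library 0 of the 3 passed in edgeR, while their median log2 fold change was 1.25, beside 1.37 with all libraries.

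Tfpi, the main inhibitor of tissue factor with factor VII (ENSMUSG00000027082, chromosome 2, 84432855 to 84476775), was the only one of the 5 called genes that kept its call in every alternative run. It stood at 23.1, 22.2 and 21.7 CPM in Vehicle and at 34.6, 39.2 and 35.3 CPM in EPO. Both groups were tight and far apart, at 22.4 ± 0.698 and 36.3 ± 2.47 CPM (SD, n = 3; log2 fold change 0.70, SE 0.11, edgeR adjusted p = 0.00614). Over the 16 alternatives the log2 fold change lay between 0.65 and 0.72 and the adjusted p between 2.55e-06 and 0.0373.

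Tfpi is made largely by endothelium, and 11 endothelial markers gave a mixed picture, with 3 higher and 1 lower (1 and 0 without Vehicle 1) and a sum of 1218 to 1300 CPM in Vehicle and 1178 to 1529 CPM in EPO. Their most abundant members went opposite ways: Pecam1 was lower (log2 fold change -0.57) and Cdh5 higher (0.87). For each 1000 CPM of that sum Tfpi had 17.8, 18.3 and 17.4 CPM in Vehicle and 22.6, 27.8 and 29.9 CPM in EPO, again with no overlap. Of 7 lymphatic endothelial markers 6 were higher (4 higher and 1 lower without Vehicle 1), with a sum of 126 to 199 CPM in Vehicle and 286 to 435 CPM in EPO. Lyve1 went the other way without passing, from 51.7 ± 10.5 to 34.7 ± 5.74 CPM with overlapping groups (SD, n = 3, edgeR adjusted p = 0.0667). The part of lymphatic markers in the rise of Tfpi was not tested.

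Tfpi2, a related inhibitor with Kunitz domains that acts on plasmin and other proteases (ENSMUSG00000029664, chromosome 6, 3962595 to 3988919), had the largest change of the 10 and the widest spread. Its counts were 24, 34 and 29 in Vehicle 1, 2 and 3 and 93, 204 and 421 in EPO 1, 2 and 3, or 1.04, 1.32 and 1.0 CPM and 2.59, 6.93 and 12.7 CPM. All EPO libraries were above all Vehicle libraries, but EPO 3 was several times EPO 1 (coefficient of variation 68.3% in EPO and 15.6% in Vehicle). The means were 1.12 ± 0.175 and 7.39 ± 5.05 CPM (SD, n = 3), a log2 fold change of 2.72 (SE 0.56, edgeR adjusted p = 0.0141). The call was lost without Vehicle 1 or Vehicle 2 (adjusted p = 0.0648 and 0.0501) and in limma-voom (0.0559). The size rested in part on EPO 3: without it the log2 fold change was 2.08 (adjusted p = 0.0266), and with EPO 3 as the only EPO library it was 3.49.

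**Figure D2:**
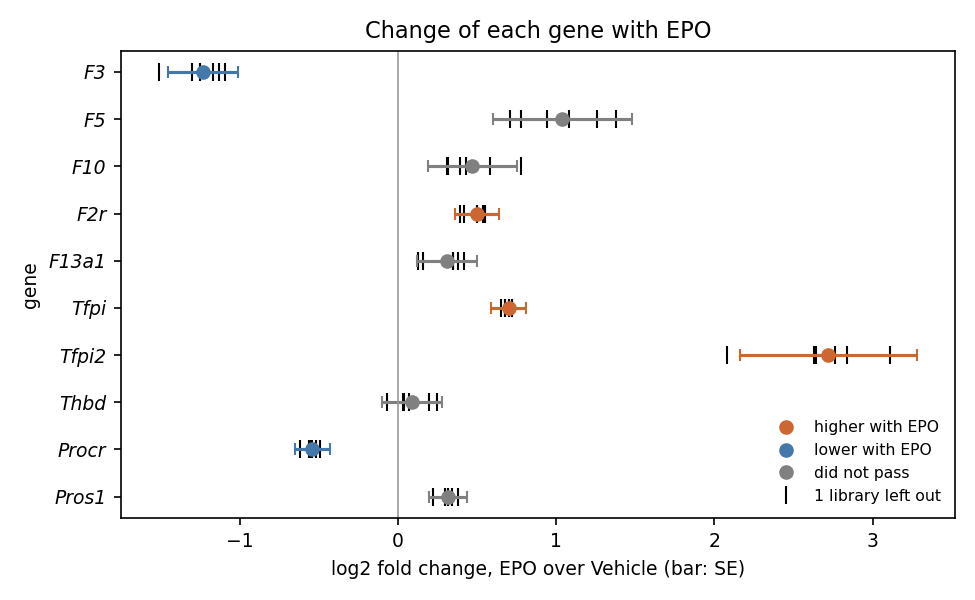
Log2 fold change of EPO over Vehicle for each gene from the edgeR fit, with its SE as a bar, and black ticks for the value with each of the 6 libraries left out in turn. Tfpi, F3, Procr, F2r and Tfpi2 passed, F3 and Procr on the lower side, and the ticks of Thbd lie on both sides of 0.

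Thbd, thrombomodulin, which binds thrombin and turns it toward protein C (ENSMUSG00000074743, chromosome 2, 148404466 to 148408188), stood at 168, 107 and 131 CPM in Vehicle and at 153, 156 and 123 CPM in EPO. The groups overlapped throughout, at 135 ± 30.6 and 144 ± 18.3 CPM (SD, n = 3; log2 fold change 0.09, SE 0.19, edgeR adjusted p = 0.762). Its sign turned without Vehicle 2 (-0.07, adjusted p = 0.844). Klf2, a transcription factor known to raise Thbd in endothelium, stood at 116, 91.6 and 90.0 CPM in Vehicle and 537, 101 and 104 CPM in EPO, so that its higher EPO mean came from EPO 1 (adjusted p = 0.173). The part of Klf2 in the Thbd values was not tested.

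Procr, the receptor that holds protein C beside thrombomodulin (ENSMUSG00000027611, chromosome 2, 155751117 to 155755471), stood at 39.9, 43.5 and 46.1 CPM in Vehicle and at 29.3, 30.7 and 29.2 CPM in EPO. The EPO libraries were almost equal (coefficient of variation 2.71%) and lay below all Vehicle libraries. The means were 43.2 ± 3.13 and 29.8 ± 0.807 CPM (SD, n = 3), a log2 fold change of -0.54 (SE 0.11, edgeR adjusted p = 0.0144). The call was lost without Vehicle 2 or Vehicle 3 (adjusted p = 0.0528 and 0.0542) and with EPO 3 as the only EPO library (0.0738). For each 1000 CPM of endothelial markers Procr had 30.7, 35.7 and 36.9 CPM in Vehicle and 19.2, 21.8 and 24.8 CPM in EPO, with every EPO library below every Vehicle library, where Tfpi had them above.

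Pros1, protein S (ENSMUSG00000022912, chromosome 16, 62854307 to 62929346), stood at 107, 121 and 130 CPM in Vehicle and at 143, 150 and 154 CPM in EPO. Every EPO library was above every Vehicle library, yet the difference did not pass (log2 fold change 0.32, SE 0.12, edgeR adjusted p = 0.0994), nor did it under any of the 16 alternatives (adjusted p from 0.0774 to 0.378). Protein S and Gas6 are also ligands of the TAM receptors, which take part in clearing dead cells. Of Gas6, Tyro3, Axl and Mertk 0 passed in edgeR, 1 had an unadjusted p under 0.05, and DESeq2 called 1 (Axl, lower) and limma-voom 0. Axl, the member with the smallest p, averaged 569 ± 38.6 CPM in the Vehicle libraries and 444 ± 25.6 CPM in the EPO libraries (SD, n = 3; adjusted p = 0.0985).

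F13a1, the catalytic subunit of the transglutaminase that crosslinks fibrin (ENSMUSG00000039109, chromosome 13, 36867178 to 37050244), is also a marker of tissue macrophages. It stood at 78.7, 106 and 101 CPM in Vehicle and at 96.7, 145 and 112 CPM in EPO, with overlapping groups (log2 fold change 0.31, SE 0.19, edgeR adjusted p = 0.273). Summed macrophage markers were 2021 to 4035 CPM in Vehicle and 4273 to 9798 CPM in EPO, with 2 of 13 higher and 1, Cd163, lower in edgeR. DESeq2, which called 4962 genes over all where edgeR called 3804, gave 7 higher and 2 lower. Without EPO 2, where 2575 genes were called over all, 4 were higher. The marker sum did not overlap between groups while F13a1 did. That gap was narrow, 4035 CPM in Vehicle 3 against 4273 CPM in EPO 3, and EPO 1 alone reached 9798 CPM. Much of the sum was Lyz2, at 954, 1991 and 2174 CPM in Vehicle and 4063, 2573 and 2146 CPM in EPO. Lyz2 overlapped between groups and was not called (edgeR adjusted p = 0.169). For each 1000 CPM of macrophage markers F13a1 had 38.9, 28.7 and 25.0 CPM in Vehicle and 9.87, 31.1 and 26.2 CPM in EPO, so that EPO 1 alone lay outside the Vehicle range. Of its exon sequence 74 of 6739 bases overlap an antisense gene.

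Levels of different genes were compared as CPM per kilobase of exon sequence. In Vehicle F3 was the highest of the 10 in 3 of 3 libraries (68.3 ± 6.89 CPM per kb, SD, n = 3). Thbd (36.4 ± 8.21), F2r (32.4 ± 2.18) and Pros1 (29.1 ± 2.83 CPM per kb) came next and were not separated beyond their spread. Procr (21.3 ± 1.54), F13a1 (14.1 ± 2.15), Tfpi (4.09 ± 0.128) and F10 (1.59 ± 0.532 CPM per kb) followed in the same order in 3 of 3 Vehicle libraries. Tfpi2 (0.642 ± 0.0999) and F5 (0.421 ± 0.142 CPM per kb) were the lowest. In EPO F2r was the highest in 3 of 3 libraries (45.9 ± 5.88 CPM per kb), and Thbd (38.8 ± 4.92), Pros1 (36.4 ± 1.35) and F3 (29.1 ± 9.01 CPM per kb) overlapped among themselves. F13a1 (17.5 ± 3.70) and Procr (14.7 ± 0.397 CPM per kb) did not separate in EPO, and Tfpi2 (4.23 ± 2.89) overlapped both Tfpi (6.65 ± 0.452) and F10 (2.20 ± 0.303 CPM per kb), lying below F10 in EPO 1. F5 (0.868 ± 0.424 CPM per kb) was the lowest in 3 of 3 EPO libraries.

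The ratio of F3 to Tfpi, per kilobase and within each library, was 17.9, 15.3 and 16.7 in Vehicle and 3.63, 3.47 and 6.11 in EPO. The initiator thus stood well above its inhibitor in all 6 libraries, by a smaller factor in each EPO library. The log2 ratio was 4.05 ± 0.11 in Vehicle and 2.09 ± 0.45 in EPO (SD, n = 3), a difference of -1.97. The two-sided exact permutation test gave p = 0.10, the lowest value 3 against 3 libraries allow. F3 was below and Tfpi above in every EPO library, so that p was fixed in advance and adds nothing to their calls. The ratio of Thbd to Procr was 2.29, 1.34 and 1.55 in Vehicle and 2.85, 2.78 and 2.30 in EPO, a log2 difference of 0.64 (two-sided exact permutation test, p = 0.10). Vehicle 1 lay right beside EPO 3 in this ratio, so the groups were barely apart. The Benjamini-Hochberg adjusted p over these 2 ratios was 0.10 for each.

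**Figure D3:**
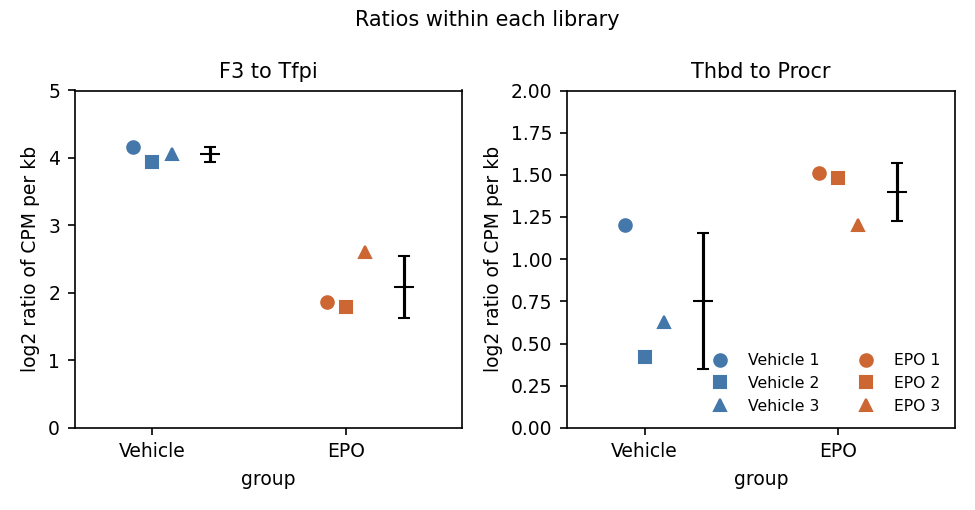
Log2 ratio of CPM per kb in each library for F3 to Tfpi (left) and Thbd to Procr (right), with the group mean and SD as a black bar. The EPO libraries lie between 1.79 and 2.61 for F3 to Tfpi, all under the Vehicle libraries at 3.94 to 4.16, while for Thbd to Procr Vehicle 1 and EPO 3 are both at 1.2.

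Other genes of the pathway were read from 8 lists with 52 genes, of which 36 were tested. Of these 13 passed (36.1%), 9 higher and 4 lower, with a median log2 fold change of 0.02. Over all tested genes 23.0% were called and the median was 0.0113. The lists were chosen with earlier results of these data known, so their share is not independent of those results. Without Vehicle 1, where 1635 genes were called over all, 4 of the pathway genes passed. Among 13 other coagulation factors 4 were tested, and Kng1 passed. Kng1, high-molecular-weight kininogen of the contact pathway, counted 0, 8 and 6 reads in Vehicle and 130, 95 and 166 reads in EPO (edgeR log2 fold change 4.44, SE 0.68, adjusted p = 0.00532). The log2 fold change was 3.89 without Vehicle 1, the library at 0, and 5.07 without Vehicle 2. Its near-identical neighbour Kng2, looked up after that value was seen, was also higher (11.2 ± 1.43 to 24.5 ± 3.54 CPM, adjusted p = 0.00454), and the counting may have split reads between them. F7, the plasma partner of tissue factor, was at 11.4 ± 1.22 and 10.3 ± 0.944 CPM (adjusted p = 0.525). Vwf, the platelet-binding protein of endothelium, did not pass at 424 ± 84.3 and 240 ± 115 CPM (adjusted p = 0.114), and its EPO libraries 1, 2 and 3 stood at 369, 201 and 149 CPM. F7 and Vwf were named after their values were seen. F2, the gene of prothrombin, had 17 counts over all 6 libraries and was not tested.

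Of 11 other anticoagulants 7 were tested, and 3 were lower and 1 higher. Entpd1, the ectoenzyme CD39 that removes the platelet agonist ADP, stood at 216, 197 and 216 CPM in Vehicle and at 122, 113 and 121 CPM in EPO (edgeR log2 fold change -0.82, SE 0.12, adjusted p = 0.00411). Hs3st1, which makes the antithrombin-binding form of heparan sulphate, fell from 19.1 ± 1.88 to 11.7 ± 1.12 CPM (adjusted p = 0.0150). Serpine2, protease nexin-1, a thrombin inhibitor of the vessel wall, fell from 813 ± 37.8 to 584 ± 13.2 CPM (adjusted p = 0.0414). Nt5e, CD73, which follows Entpd1 in the same pathway and makes adenosine, rose from 12, 12.8 and 13.2 CPM to 17.5, 37.3 and 27.1 CPM (adjusted p = 0.0224). The first enzyme of that pair thus fell and the second rose. Entpd1 kept its call in 16 of 16 alternatives. Serpine2 kept it in 8, losing it without Vehicle 1, 2 or 3 or without EPO 2 or EPO 3 (adjusted p from 0.0885 to 0.13). Hs3st1 lost its call without Vehicle 1 (0.0599) or Vehicle 3 (0.0509), and Nt5e without Vehicle 1, 2 or 3 (0.0909, 0.0774 and 0.0581). For each 1000 CPM of smooth muscle markers Entpd1 had 7.11 to 9.27 CPM in Vehicle and 11.9 to 16.0 CPM in EPO. That turn to higher values comes from the marker sum, which fell more than Entpd1 (21257 to 30318 CPM in Vehicle, 7638 to 10117 CPM in EPO).

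**Figure D4:**
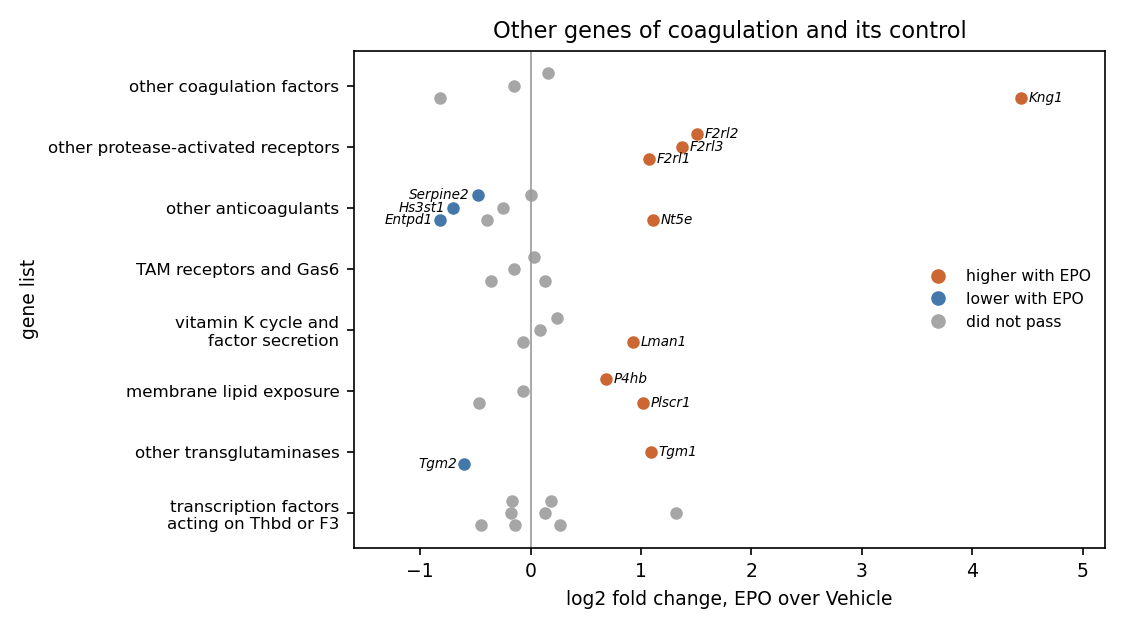
Log2 fold change of EPO over Vehicle for the 36 tested genes of the 8 other lists, 1 point per gene, with names for those that passed. The 3 protease-activated receptors lie between 1.07 and 1.51, and Entpd1, Hs3st1 and Serpine2 lie below 0.

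In the vitamin K cycle and factor secretion 1 of 4 tested genes passed. Lman1, the cargo receptor that carries factors V and VIII out of the endoplasmic reticulum, rose from 76.0, 80.1 and 75.9 CPM to 128, 170 and 143 CPM (log2 fold change 0.93, SE 0.14, edgeR adjusted p = 0.00470), and its partner Mcfd2 was at 128 ± 6.47 and 151 ± 10.8 CPM (adjusted p = 0.175). Among 4 genes of membrane lipid exposure and tissue factor activation 2 were higher. Plscr1, phospholipid scramblase 1, rose from 12.1 ± 2.43 to 24.5 ± 3.36 CPM (adjusted p = 0.00939) and P4hb, protein disulphide isomerase, from 542 ± 32.7 to 870 ± 67.9 CPM (adjusted p = 0.0159). P4hb lost its call without Vehicle 1 or Vehicle 2 (0.0874 and 0.0774). Of the other transglutaminases Tgm2, the tissue form, fell from 570 ± 75.5 to 376 ± 25.9 CPM (adjusted p = 0.0301), and the low Tgm1 rose from 1.93 ± 0.489 to 4.12 ± 1.1 CPM (adjusted p = 0.0420). Tgm2 lost its call without Vehicle 1, Vehicle 3, EPO 2 or EPO 3 (0.105, 0.0924, 0.0954 and 0.0671), and Tgm1 without any 1 of the 6 libraries (from 0.0521 to 0.152). Part of the exon sequence of Tgm1 and of Tgm2 overlaps genes on the opposite strand. Of 8 transcription factors known to act on Thbd or F3 0 passed in edgeR, 0 had an unadjusted p under 0.05, and DESeq2 called 0 and limma-voom 0. Klf2, given above, had the smallest p among them (unadjusted p = 0.0722).

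**Figure D5:**
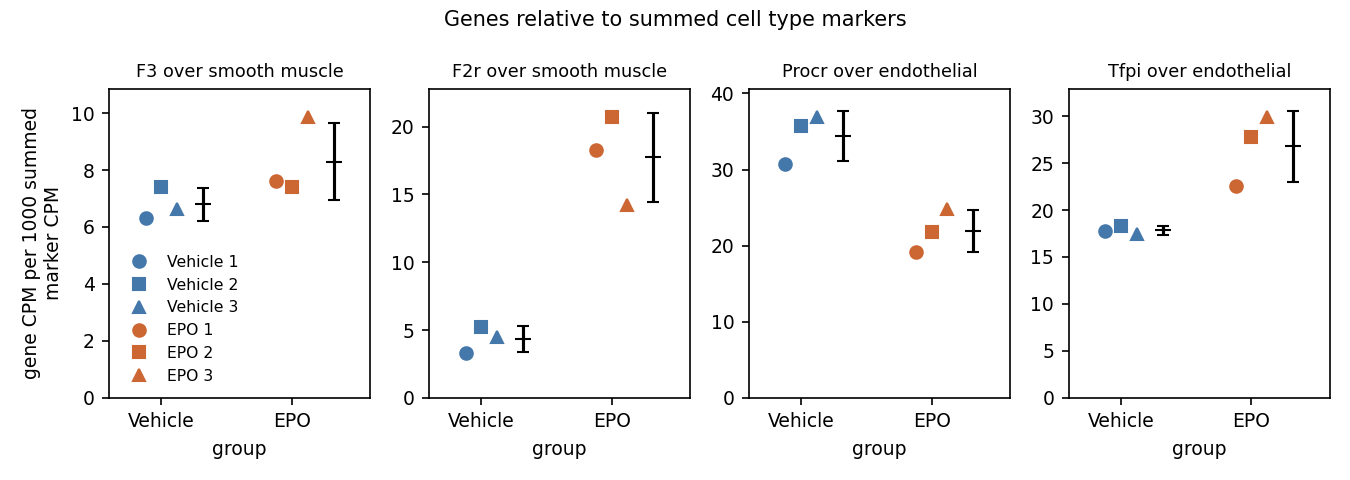
CPM of F3 and F2r for each 1000 summed CPM of smooth muscle markers and of Procr and Tfpi for each 1000 summed CPM of endothelial markers, by library, with the group mean and SD as a black bar. The groups overlap for F3 and do not for F2r, Procr and Tfpi. For F2r this follows from higher F2r and a lower marker sum in every EPO library.

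The total count per library ran from 23278649 to 38502430, so that a count of 0 allows up to 0.0779 to 0.129 CPM from counting error alone. On principal components the groups parted on the first axis (62.2% of variance), and EPO 1 stood apart on the second (16.0%). Skeletal muscle markers were higher in all EPO libraries (sum 6.10 to 13.9 CPM in Vehicle and 312 to 2713 CPM in EPO), adipocyte markers were lower (2448 to 6211 and 1706 to 2046 CPM), and summed red cell markers overlapped (730 to 1491 and 459 to 1415 CPM). Monocyte markers summed to 25.3 to 62.2 CPM in Vehicle and 108 to 181 CPM in EPO, and neutrophil markers reached 419 CPM in 1 EPO library against at most 43.6 CPM in Vehicle. Mesothelial and Schwann cell marker sums overlapped between groups. The part of these cells in the changes above was not tested.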

How the data were processed

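Libraries of aorta RNA were made with the NEBNext Ultra kit, for which no strand marking is named, and sequenced as paired ends, per the labels' protocols. CASAVA 1.8, TopHat2 2.0.6 and the build mm10 are listed per the submitters' processing notes. How reads were counted, with which annotation and strand setting, is not given in the sources used here. Values deposited by the authors are raw counts per Ensembl gene, not normalized by the authors, and all 6 columns were used. The columns named Con were read as Vehicle.

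Symbols and GRCm38 coordinates (the assembly of mm10) came from GENCODE M21 (47224 of 47643 IDs matched) and promoters from RefSeq on GRCm38.p6. In R 4.3.3 with edgeR 4.0.16, genes were filtered with filterByExpr, libraries scaled by TMM and groups compared with a two-sided quasi-likelihood test, adjusted by Benjamini-Hochberg over the 16522 genes tested. The procedure was tested on simulated data. CPM uses the library's count over tested genes times its TMM factor, and CPM per kb the union of exons. Ratios used a prior count of 0.5. The 10 genes, the other lists and the motifs were chosen with earlier results of these data known. The rule for naming genes was, for each pathway list, up to 3 called genes of smallest p, or the 1 of smallest p. For marker lists it was the most abundant genes. Other genes, among them Serpine2, Mcfd2, F2, Myh11, Cd163, Gp1ba, Ppbp and Lyve1, were named outside this rule with their values known. The comparisons with marker sums were chosen after the values were seen. Alternatives were other scalings, filters and tools (DESeq2 1.42.0, limma-voom 3.58.1), a replicate block and each library left out. The limit at a count of 0 was taken as 3 counts and covers counting error only.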

Additional observations from a re-analysis of the deposited data

How the results depend on the processing

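The number of changed genes was 3804 and ran from 1635 (without Vehicle 1) to 4281 (without EPO 1) with single libraries left out. Of the 10 coagulation genes 5 passed, and 2 (without Vehicle 2) to 5 did so with single libraries left out. Of the other pathway genes 13 passed, and 4 (without Vehicle 1) to 12 did so. Leaving out EPO 1 and EPO 2 together, chosen after seeing the data, gave 1548, 2 and 6. Here 1 EPO library was compared and assumed to vary like the Vehicle libraries, and any further cause was not tested. Thbd, which never passed, had log2 fold changes from -0.07 (without Vehicle 2, a reversed sign) to 0.25 (without Vehicle 1) with single libraries left out, and its sign was reversed also without EPO 1 and EPO 2 together (-0.13). No other of the 10 genes changed its direction in the 16 alternatives. With the replicate number as a block, 2884 genes, 4 of the 10 and 11 of the other pathway genes passed, and F2r missed the threshold (edgeR adjusted p = 0.0579). Same-numbered libraries had correlated deviations of -0.009, -0.010 and 0.127, and Vehicle 1 and Vehicle 2 did not correlate best with their own number, so the numbers were not taken as pairs. F2r also missed it with library size alone (0.0620). The F3 to Tfpi difference ran from -2.23 to -1.82 and that of Thbd to Procr from 0.48 to 0.87 with single libraries left out. Depth limits genes with few counts in Vehicle, such as Tfpi2 (24 to 34 counts) and Kng1 (0 to 8).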
